A study of Mus musculus with 4 samples.

Results

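The genes described here encode the receptors that bind Dickkopf-1 (DKK1) and members of the Dickkopf family themselves. They are Lrp5, Lrp6, Lrp4, Kremen1, Ckap4, Dkk1 and Dkk3, matched by exact symbol among the 53801 genes of the count table, and each symbol belonged to 1 gene ID. All 7 passed the filter on low counts and were among the 17462 genes tested. The cells, osteoclast precursors taken from wild-type mice of the C57BL/6 strain, received either PBS (phosphate-buffered saline) or DKK1 at 200 ng/ml, both for 3 h. The cells came from 2 mice, numbered precursor cells 1 and 2, and each was split over both treatments, which gave 4 libraries with 41163663 to 53537927 counts. The labels give neither the age nor the sex of the mice, nor the tissue and culture from which the precursors were taken.

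Canonical Wnt signalling starts when a secreted Wnt protein joins a Frizzled receptor to Lrp5 or Lrp6 at the cell surface, after which the kinases that mark beta-catenin for destruction are drawn to the receptor's tail. DKK1 blocks this step by occupying Lrp5 and Lrp6, and Kremen proteins bind the resulting complex and promote its removal from the surface. Lrp4 also binds DKK1, and Ckap4 is a receptor through which DKK1 is known to activate the PI3K and AKT kinases in tumour cells. In bone, DKK1 is best known as an inhibitor of osteoblasts, and the precursors studied here belong to the myeloid lineage that forms bone-resorbing osteoclasts.

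The labelled cell type was checked against markers. Summed over 12 markers of osteoclast precursors and monocytes, the level was 32994 to 33250 CPM (counts-per-million scaling, a level relative to library size) in precursor cells 1 and 25320 to 25757 CPM in precursor cells 2. Lyz2, lysozyme, carries this sum, at 24782 to 24909 CPM in precursor cells 1 and 14288 to 14685 CPM in precursor cells 2. The sum of the other 11 markers went the opposite way, at 8212 to 8341 CPM and 11033 to 11073 CPM, but not each of them did. None of the 12 was at 0, and Csf1r, the M-CSF receptor, and Tnfrsf11a, the receptor RANK, averaged 2293 and 199.5 CPM. Markers of other lineages were also counted: neutrophil markers summed to 4781 to 9171 CPM over the 4 libraries, megakaryocyte and platelet markers to 1389 to 2096 CPM, stromal and osteoblast markers to 572 to 751 CPM, B lineage markers to 30.2 to 225 CPM, endothelial markers to 60.6 to 144 CPM and erythroid markers to 78.5 to 167 CPM. Libraries of the same mouse lay close together and the mice lay far apart, with 76.1% of the variance of log2 CPM on a principal component that parted precursor cells 1 from 2. In such bulk samples a smaller number of cells of a type and less RNA per cell cannot be told apart.

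Per unit of gene length, Ckap4 was the highest of the receptors, followed by Kremen1, Lrp5, Lrp6 and Lrp4, in that order in all 4 libraries. The lengths come from the authors' deposited tables, which give FPKM (fragments per kilobase of gene, scaled to library size). On that scale Ckap4, which encodes a membrane protein that shapes the sheets of the endoplasmic reticulum and also reaches the cell surface, lay at 16.6 FPKM (PBS 1), 17.5 (DKK1 1), 34.7 (PBS 2) and 33.7 (DKK1 2). Kremen1, which encodes a transmembrane co-receptor of DKK1, lay at 9.85, 10.1, 6.60 and 6.52 FPKM in the same order of libraries. Lrp5, a Wnt co-receptor known for its part in bone mass, lay at 4.60, 4.08, 3.98 and 3.88 FPKM. Lrp6, its close relative, lay at 3.84, 3.77, 3.42 and 3.22 FPKM. Lrp4, best known as the agrin receptor of the neuromuscular junction and as a receptor of sclerostin, lay at 0.284, 0.483, 0.951 and 1.28 FPKM.

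No 2 neighbours in this order overlapped over the 4 libraries, but the steps were unequal. Within a library, Lrp5 exceeded Lrp6 in FPKM by 1.20 times (PBS 1), 1.08 times (DKK1 1), 1.16 times (PBS 2) and 1.21 times (DKK1 2). Ckap4 exceeded Lrp6 by 4.33 and 4.65 times in precursor cells 1 and by 10.1 and 10.5 times in precursor cells 2. Kremen1 exceeded Lrp6 by 2.57 (PBS) and 2.69 times (DKK1) in precursor cells 1 and by 1.93 and 2.03 times in the other mouse. Lrp6 exceeded Lrp4 by 13.5 and 7.81 times in precursor cells 1 and by 3.60 and 2.52 times in precursor cells 2. The median of all genes in the authors' deposited tables was 5.51 FPKM in PBS 1 and 5.18 FPKM in PBS 2. Ckap4 and Kremen1 thus lay above the middle of the listed genes and Lrp5, Lrp6 and Lrp4 below it. Those tables list only 13253 and 13175 genes, none with a count below 54 and 42. By mean CPM, which takes no account of gene length, Lrp5, Lrp6 and Lrp4 lay above 74.6%, 78.2% and 45.8% of the 17462 genes tested. Counts per kilobase of the GENCODE exons gave the same order of the receptors as FPKM.

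**Figure D1:**
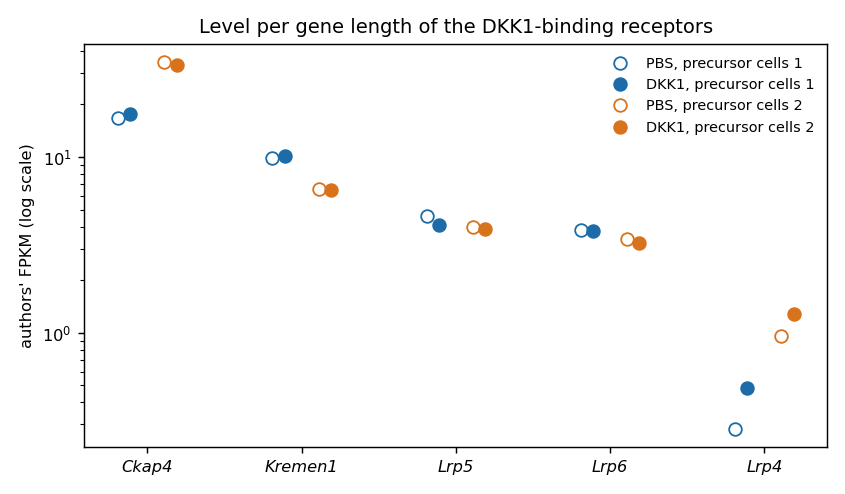
Level of the 5 receptor genes per gene length, as the authors' deposited FPKM on a log axis, 1 point per library (open for PBS, filled for DKK1, blue for precursor cells 1 and orange for precursor cells 2). The order from Ckap4 to Lrp4 is the same in each library, and Ckap4 and Lrp4 are higher in precursor cells 2 while Kremen1 is lower there.

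Both Dickkopf genes were close to the limit of detection. On GENCODE exon lengths, Dkk1 had 0.170 (PBS 1), 0.0924 (DKK1 1), 0 (PBS 2) and 0.0895 (DKK1 2) counts per kilobase, scaled to library size, and Dkk3 had 0.101, 0.200, 0.0723 and 0.0259. These ranges overlap, so the 2 genes cannot be ordered, and on this scale both lay below Lrp4, which had 0.318 to 1.42. The authors' deposited tables list neither of them.

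The first comparison asked whether the genes for DKK1's receptors and for the Dickkopf family change when the cells are exposed to DKK1. None of the 7 genes passed edgeR's quasi-likelihood test (0 higher, 0 lower; Benjamini-Hochberg adjusted p from 0.959 to 0.999 over all genes), against 0.0515% of all genes tested in either direction, 0.0401% higher and 0.0115% lower. DESeq2 and limma-voom also called 0 of them, and 1 of the 7, Lrp4, had an unadjusted p under 0.05, beside 4.47% of all genes tested. The model paired the libraries by mouse and left 1 residual degree of freedom, and edgeR draws the rest of its estimate of spread from the other genes, which gave each of these tests 5.68 to 5.84 degrees of freedom. The median log2 change was 0.01 for the 7 genes and -0.001 for all genes tested. For 3 of the 7 genes, Lrp5, Lrp6 and Lrp4, the difference had the same sign in both mice, against 51.4% of all genes tested.

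Lrp5 had 2645 (PBS 1), 2355 (DKK1 1), 1766 (PBS 2) and 1933 (DKK1 2) counts, or 46.8, 41.5, 45.7 and 44.5 CPM. Both DKK1 libraries lay below both PBS libraries. The within-mouse log2 differences were -0.17 and -0.04, and the fitted fold change was 0.927 (95% interval 0.799 to 1.08, n = 2 pairs; edgeR adjusted p = 0.966). Lrp6 had 3103, 3053, 2136 and 2251 counts in the same order, or 54.9, 53.8, 55.3 and 51.8 CPM. Here too both DKK1 libraries lay below both PBS libraries, with within-mouse log2 differences of -0.03 and -0.09 and a fold change of 0.959 (95% interval 0.839 to 1.10; edgeR adjusted p = 0.970). Lrp5 and Lrp6 are 2 of the 7 genes without overlap of the treatments in CPM, and 16.2% of all genes tested had none. Counting alone gave ratios of DKK1 to PBS for Lrp5 of 0.886 (exact 95% interval 0.838 to 0.937) in precursor cells 1 and 0.973 (0.912 to 1.04) in precursor cells 2. For Lrp6 they were 0.979 (0.931 to 1.03) and 0.937 (0.883 to 0.995). Such ratios compare the libraries and not the treatments. The fitted intervals do not hold a fall of Lrp5 or Lrp6 mRNA below 0.799 and 0.839 of the PBS level.

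Lrp4 had 178 counts in PBS 1 and 302 in DKK1 1, and 456 in PBS 2 and 686 in DKK1 2, or 3.15, 5.32, 11.8 and 15.8 CPM. It was higher with DKK1 in both mice, but PBS 2 lay above DKK1 1, so the treatments overlapped. The within-mouse log2 differences were 0.75 and 0.42. Counting alone gave ratios of 1.69 (exact 95% interval 1.40 to 2.04) in precursor cells 1 and 1.34 (1.19 to 1.51) in precursor cells 2, which compares the libraries and not the treatments. The fitted fold change was 1.46 (95% interval 1.08 to 1.96), with an unadjusted p of 0.0215 and an edgeR adjusted p of 0.959 over all genes, so it did not hold up against the correction for multiple tests. In the authors' deposited tables Lrp4 had log2 ratios of 0.60 (FDR 1.2e-05) and 0.39 (FDR 0.00159), from 1 library against 1. An FDR under 0.05 was given there to 19% and 16.7% of the listed genes, and a significant call, which in these tables also needs an absolute log2 ratio of at least 1, to 0.921% and 0.987%. Lrp4 has no such call in either of the authors' deposited tables. Stromal and osteoblast markers, a lineage in which Lrp4 is known to be expressed, summed to 572 and 666 CPM in PBS 1 and DKK1 1 and to 751 and 744 CPM in PBS 2 and DKK1 2. Most of this sum is Spp1, osteopontin, which macrophages also express (mean 595.7 CPM), and without it the sums were 68.8, 85.2, 98.8 and 98.3 CPM in the same order. None of their 14 tested genes passed the test with DKK1 by edgeR, DESeq2 or limma-voom. The list was split, with a positive log2 change for 7 of the 14 and a median of 0.03. An unadjusted p under 0.05 was found for 2, Col1a2 (log2 0.34) and Ibsp (log2 1.74). Ibsp had few counts, 26 (PBS 1), 83 (DKK1 1), 0 (PBS 2) and 5 (DKK1 2), and Bglap and Sp7 averaged 0.00881 and 0.375 CPM. The part of stromal and osteoblast cells in the Lrp4 values was not tested.

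Kremen1 had 4495, 4637, 2322 and 2573 counts (PBS 1, DKK1 1, PBS 2, DKK1 2), or 79.6, 81.7, 60.1 and 59.2 CPM. The treatments overlapped, the within-mouse log2 differences were 0.04 and -0.02, and the fold change was 1.01 (95% interval 0.889 to 1.14; edgeR adjusted p = 0.998). Ckap4 had 3033, 3205, 4886 and 5317 counts, or 53.7, 56.5, 126 and 122 CPM. Its log2 differences were 0.07 and -0.05, and its fold change was 1.01 (95% interval 0.891 to 1.14; edgeR adjusted p = 0.997). For both genes the treatments lay much closer together within a mouse than the mice did.

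**Figure D2:**
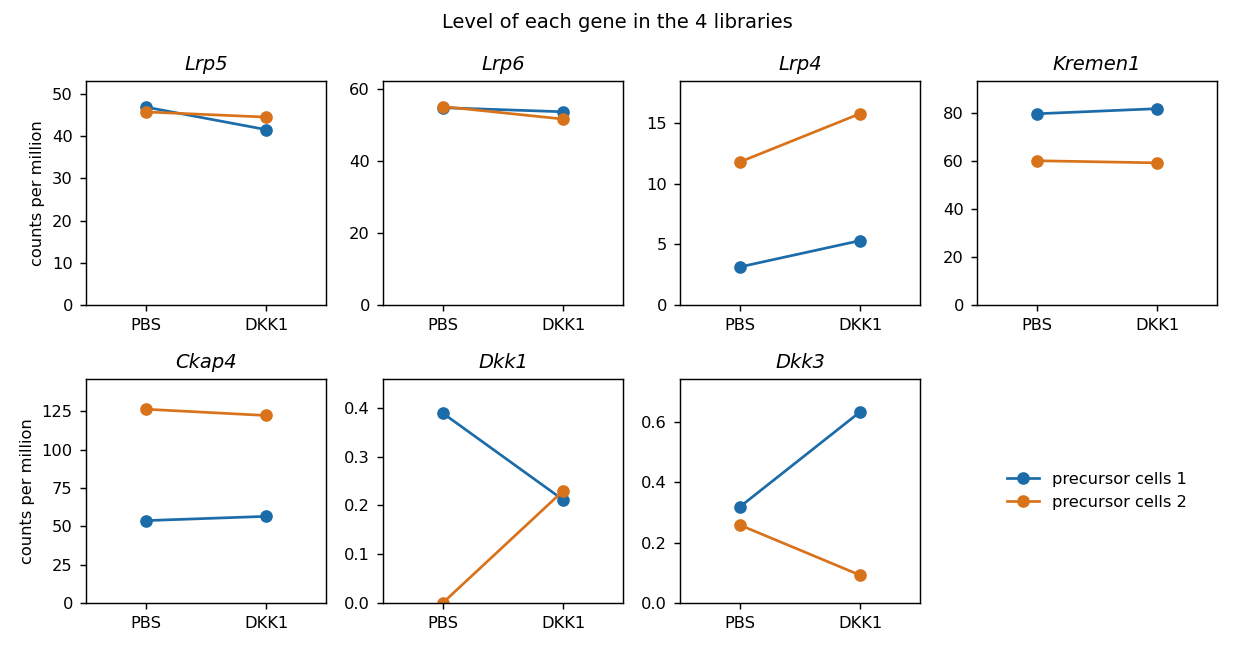
Level in CPM of each of the 7 genes in the 4 libraries, with lines joining the PBS and DKK1 libraries of the same mouse (blue for precursor cells 1, orange for precursor cells 2; axes start at 0 and differ in scale). Lrp5 and Lrp6 are slightly lower and Lrp4 is higher with DKK1 within each mouse. Lrp4 is also higher in precursor cells 2, Kremen1 and Ckap4 differ by mouse, and Dkk1 and Dkk3 lie under 1 CPM.

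Dkk1, which encodes the ligand that was added to the cells, had 22 counts in PBS 1, 12 in DKK1 1, 0 in PBS 2 and 10 in DKK1 2. The 0 counts of PBS 2 allow a level of up to 0.0776 CPM (3 counts), and the other libraries lay at 0.390, 0.211 and 0.230 CPM. The mice went opposite ways, and the ratio of DKK1 to PBS was 0.543 (exact 95% counting interval 0.245 to 1.15) in precursor cells 1. In precursor cells 2 the 0 counts of PBS 2 leave the ratio without an upper bound, and its exact 95% lower limit was 1.99. With the floor of 3 counts for PBS 2 the ratio was 2.96. The fitted fold change was 0.978 (edgeR adjusted p = 0.999). Its 95% interval of 0.157 to 6.12 holds changes of several-fold either way. Dkk3, which encodes a divergent family member that does not bind Lrp5 or Lrp6 in the way DKK1 does, had 18, 36, 10 and 4 counts, or 0.319, 0.634, 0.259 and 0.0920 CPM. It also went opposite ways, with ratios of 1.99 (exact 95% counting interval 1.10 to 3.72) in precursor cells 1 and 0.356 (0.0814 to 1.23) in precursor cells 2, and the fitted fold change was 1.37 (95% interval 0.364 to 5.18; edgeR adjusted p = 0.978). Counting intervals and floors cover counting error only.

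The second comparison set precursor cells 2 against precursor cells 1 in the same model, with treatment as the other term. Lrp4 and Ckap4 were higher and Kremen1 was lower in precursor cells 2, while Lrp5 and Lrp6 differed little. No preparation was replicated, so the test describes these 2 preparations, each seen in both treatments. Of the 7 genes, 3 passed edgeR's test (2 higher, 1 lower), against 33.8% of all genes tested (17.9% higher, 15.9% lower), and 4 did not overlap between the preparations in CPM, against 69% of all genes tested, so the shares among the 7 are near those of all genes.

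Ckap4 was 2.26-fold higher in precursor cells 2 (95% interval 1.99 to 2.55; edgeR adjusted p = 0.000158), at 124 ± 2.89 CPM against 55.1 ± 1.97 CPM (SD, n = 2 libraries each). Its log2 difference was 1.23 among the PBS libraries and 1.11 among the DKK1 libraries. Lrp4 was 3.27-fold higher (95% interval 2.43 to 4.41; edgeR adjusted p = 0.00111), at 13.8 ± 2.82 CPM against 4.24 ± 1.53 CPM, with log2 differences of 1.89 in PBS and 1.56 in DKK1. Its call ended when DKK1 2 was left out (log2 1.47, edgeR adjusted p = 0.073, beside 0.00404 to 0.0324 when any other library was left out), while the calls of Ckap4 and Kremen1 held without any 1 library. Kremen1 was 1.35-fold lower, with a log2 change of -0.44 (95% interval -0.62 to -0.26; edgeR adjusted p = 0.00695), at 59.6 ± 0.624 CPM against 80.6 ± 1.51 CPM. The ratio of Ckap4 to Kremen1 in FPKM was thus 1.69 (PBS) and 1.73 (DKK1) in precursor cells 1 and 5.26 and 5.17 in the other mouse.

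Lrp5 lay at 45.1 ± 0.863 CPM in precursor cells 2 and 44.2 ± 3.77 CPM in precursor cells 1 (fold 1.02, 95% interval 0.881 to 1.19; edgeR adjusted p = 0.816). Lrp6 lay at 53.5 ± 2.46 and 54.4 ± 0.805 CPM (fold 0.984, 95% interval 0.860 to 1.12; edgeR adjusted p = 0.849). These intervals hold no fold below 0.860 or above 1.19 for either Wnt co-receptor. Dkk1 and Dkk3 had fitted folds of 0.411 and 0.359 with intervals of 0.0540 to 3.12 and 0.0816 to 1.58, which leaves their direction unknown (edgeR adjusted p = 0.458 and 0.245). For Dkk3 both libraries of precursor cells 1 lay above both of precursor cells 2.

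Marker lists were also read between the same preparations, where 33.8% of all genes tested passed edgeR's test (17.9% higher, 15.9% lower). Neutrophil markers were higher in precursor cells 2 for 9 of 10 genes tested (8942 to 9171 against 4781 to 4830 CPM summed), and endothelial markers for 4 of 8 (139 to 144 against 60.6 to 65.1 CPM, with Cldn5 at 0 in 2 libraries). B lineage markers were lower for 10 of 10 (30.2 to 30.7 against 145 to 225 CPM, with Vpreb1 and Igll1 at 0 in both libraries of precursor cells 2). Of the stromal and osteoblast markers 3 were higher and 1 lower of 14 (744 to 751 against 572 to 666 CPM), of the megakaryocyte markers 4 were lower of 11, of the erythroid markers 5 were higher of 7, and of the markers of precursors and monocytes 5 were higher and 3 lower of 12. Among the latter, Ly6c2, a marker of classical monocytes, was higher by a log2 change of 2.84. The 3 lower ones were Cd14, Lyz2 and Ccr2, with log2 changes of -1.50, -0.78 and -0.60, so this list was split. With DKK1 no gene of these 7 lists passed the test by edgeR, DESeq2 or limma-voom, and an unadjusted p under 0.05 was found for 3 of 12 precursor and monocyte markers, 2 of 14 stromal, 5 of 10 B lineage, 4 of 7 erythroid and 1 of 10 neutrophil markers and for none of the megakaryocyte and endothelial ones, beside 4.47% of all genes tested. The smallest of these p belonged to Fcmr and Cd79a of the B lineage (log2 -0.88 and -0.53) and to Hba-a1 and Hbb-bs of the erythroid list (log2 -0.46 and -0.42). The part of these cell types in the values of Ckap4, Lrp4 and Kremen1 was not tested.

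**Figure D3:**
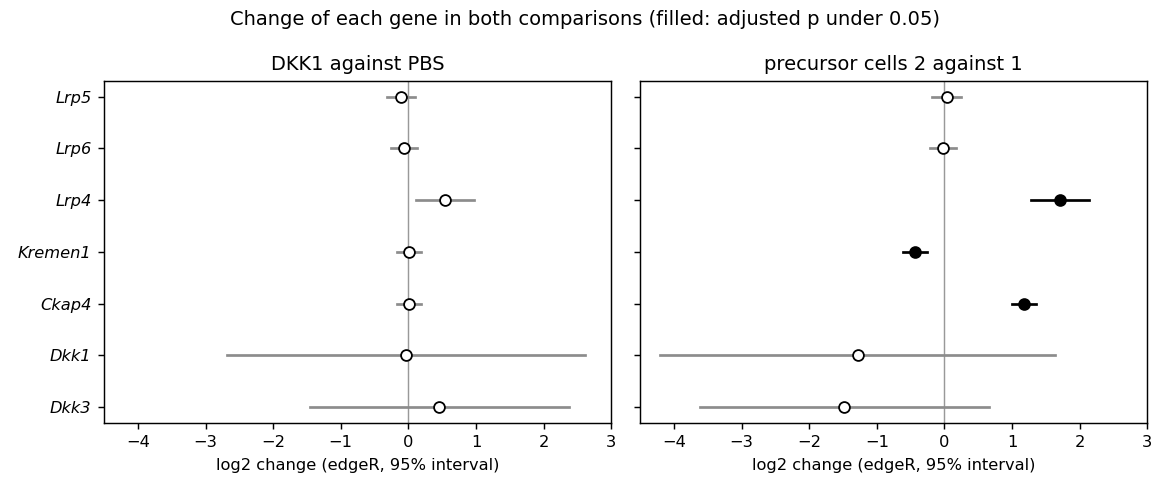
Fitted log2 change of each of the 7 genes with its 95% interval, for DKK1 against PBS (left) and precursor cells 2 against 1 (right); filled points passed edgeR's test at an adjusted p under 0.05. On the left no gene passed and Lrp4 alone has an interval clear of 0, and on the right Lrp4 and Ckap4 are higher and Kremen1 is lower.

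Genes whose products work with these receptors were read from the same fit, and 0 of them passed the test with DKK1 by edgeR, DESeq2 or limma-voom. Among other Dickkopf, Kremen and secreted inhibitor genes, Dkk4, Kremen2, Sost, Sostdc1, Frzb and Notum were at 0 in all 4 libraries, Dkk2 had 5 counts in all and Dkkl1 had 17. Kremen1 was therefore the Kremen gene with counts, and the floor of 3 counts for Kremen2 was 0.0528 to 0.0776 CPM per library. Of the 6 of these 16 genes that were tested (median log2 change 0.11, 1 with an unadjusted p under 0.05), Sfrp4, a secreted Wnt inhibitor, had 58 (PBS 1), 490 (DKK1 1), 93 (PBS 2) and 133 (DKK1 2) counts (log2 1.91, adjusted p = 0.959). Igfbp4, which binds insulin-like growth factors and has also been described as a Wnt inhibitor, was the most abundant at a mean of 100.4 CPM (log2 -0.13, adjusted p = 0.959). Between the preparations 2 genes of this list were higher and 1 lower in precursor cells 2. For this and the lists below, the counts between preparations stand beside 33.8% of all genes tested (17.9% higher, 15.9% lower). The counts with an unadjusted p under 0.05 with DKK1 stand beside 4.47% of all genes tested. Igfbp4 was lower by a log2 change of -1.06 (edgeR adjusted p = 0.00024). Sfrp1, a secreted Wnt inhibitor with 4, 4, 26 and 20 counts (PBS 1, DKK1 1, PBS 2, DKK1 2), and Apcdd1, a membrane-bound one with 18, 26, 82 and 88 counts, were higher by log2 changes of 2.95 and 2.40 (edgeR adjusted p = 0.0364 and 0.0102).

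Of 11 other genes of the LDL receptor family tested, none had an unadjusted p under 0.05 with DKK1 (median log2 change 0.05). Lrp1, an endocytic receptor of macrophages, was by far the most counted of them at a mean of 2174 CPM (log2 0.05), and Lrp11 and Ldlrad3 had the smallest p (log2 -0.52 and -0.21, adjusted p = 0.959 each). In precursor cells 2 against 1, 4 of the 11 were higher and 1 was lower. Of 16 genes for folding, processing and uptake of Lrp5 and Lrp6, 1 had an unadjusted p under 0.05 (median log2 change -0.04). It was Cav1, the caveolin gene, which had 2251 (PBS 1), 1163 (DKK1 1), 830 (PBS 2) and 787 (DKK1 2) counts (log2 -0.64, adjusted p = 0.959). Mesd, the chaperone that Lrp5 and Lrp6 need to leave the endoplasmic reticulum, had 1664, 1626, 869 and 1769 counts (log2 0.39, adjusted p = 0.959), so the difference lay in precursor cells 2. Cltc, the clathrin heavy chain, was the most abundant at 779.6 CPM (log2 0.002). In precursor cells 2 against 1, 1 of the 16 was higher and 3 were lower.

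Of the partners of Lrp4, Musk and Chrna1 were at 0 in all libraries, and 4 of 8 genes were tested (median log2 change -0.06). Agrn, which encodes agrin, the ligand of Lrp4 at the neuromuscular junction, had 1873, 1803, 4597 and 4768 counts (PBS 1, DKK1 1, PBS 2, DKK1 2). It had a log2 change of -0.09 with DKK1 (edgeR adjusted p = 0.966) and was higher in precursor cells 2 by a log2 change of 1.81 (edgeR adjusted p = 3.3e-05), the direction of Lrp4 itself. App, the amyloid precursor protein, was the most abundant at 924.4 CPM (log2 -0.03 with DKK1) and the other of the 2 partners that passed between preparations, higher by a log2 change of 0.25, and Chrnb1, a subunit of the acetylcholine receptor, had few counts, 47, 28, 62 and 25 (log2 -1.13, adjusted p = 0.959).

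Of 12 genes for the sheets of the endoplasmic reticulum and their anchoring to microtubules, the setting in which Ckap4 is best known, 1 had an unadjusted p under 0.05 with DKK1 (median log2 change -0.01). It was Lnpk, which encodes lunapark (log2 -0.41, adjusted p = 0.959), and Rtn4, a reticulon, followed (log2 0.11, adjusted p = 0.959). In precursor cells 2 against 1 these genes were split, with 3 higher and 3 lower. Rrbp1, a ribosome-binding protein of sheets and the most abundant at 635.5 CPM, was higher by a log2 change of 0.65, and Rtn4 was lower by a log2 change of -0.35 (edgeR adjusted p = 0.000177 and 0.0031).

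Of 18 kinases and scaffolds that act at the tail of Lrp5 and Lrp6, none had an unadjusted p under 0.05 (median log2 change 0.01). Cdk14, a kinase that phosphorylates the Lrp6 tail, had 3958, 5660, 1500 and 1632 counts (log2 0.26, adjusted p = 0.959), Csnk1g2, a casein kinase of the membrane, a log2 change of -0.11, and Ctnnb1, beta-catenin, the most abundant at 473 CPM, a log2 change of 0.13. In precursor cells 2 against 1, 5 of the 18 were higher and 2 lower. Of 21 canonical Wnt target genes tested out of 24, 1 had an unadjusted p under 0.05 (median log2 change -0.01), namely Cd44, an adhesion receptor and the most abundant at 399.3 CPM (log2 -0.34, adjusted p = 0.734). Lgr5, a receptor of R-spondins, had 56, 22, 8 and 0 counts. Between the preparations 6 of these targets were higher and 7 lower.

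**Figure D4:**
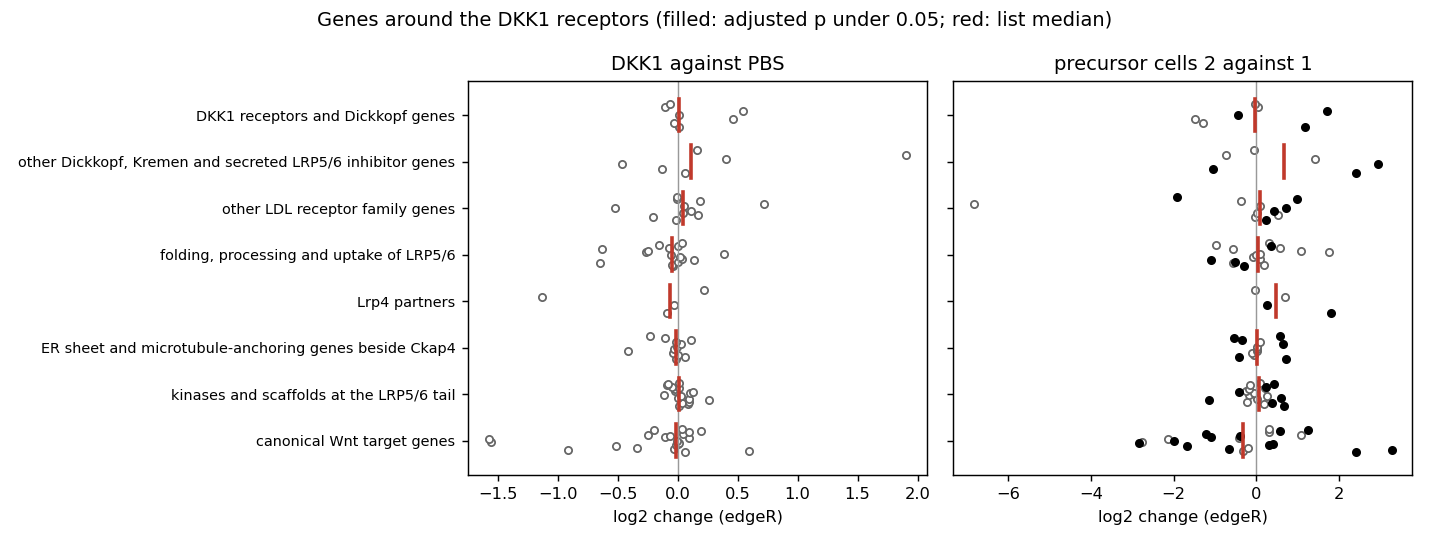
Fitted log2 change of each tested gene by list, for DKK1 against PBS (left) and precursor cells 2 against 1 (right); filled points passed edgeR's test and red bars are list medians. No gene passed on the left and genes of every list did on the right, where the point farthest to the left is Lrp3, whose 0 counts in both libraries of precursor cells 2 make its fitted value no bound.

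The genes with the most similar pattern over the 4 libraries were sought by the root mean square difference of mean-centred log2 CPM. For Ckap4 these were Gsdmd, the pore-forming gasdermin D, and Ecm1, an extracellular matrix protein (0.00929 and 0.0137 log2 units), and for Kremen1 Wdr55 and Timm10 (0.0110 and 0.0113). For Lrp5 they were Ncln and Arl3 and for Lrp6 Brf1 and Myl12a. Within 0.1 log2 units of these nearly flat patterns, however, lay 1701 and 2164 genes. Ckap4 and Kremen1 had 156 and 1164 genes within the same distance. For Lrp4 7 genes lay that near, the closest being Svep1 (10, 20, 31 and 48 counts) and Tfpi2 (12, 20, 36 and 54 counts), both themselves scarce. Dkk1 and Dkk3 had 0 genes within 0.1, their nearest being B3galt2 and Spcs2-ps, and Zfp286 and Rpl35a-ps5. With 4 libraries from 2 mice such likeness describes these libraries only.

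All 7 are protein-coding genes on mm10 (GRCm38, GENCODE M21). Lrp5 (ENSMUSG00000024913) lies on chromosome 19 from 3584828 to 3686564 and Dkk1 (ENSMUSG00000024868) on the same chromosome from 30545863 to 30549665. Lrp6 (ENSMUSG00000030201) lies on chromosome 6 from 134446476 to 134566965, Lrp4 (ENSMUSG00000027253) on chromosome 2 from 91457511 to 91513779 and Kremen1 (ENSMUSG00000020393) on chromosome 11 from 5191552 to 5261558. Ckap4 (ENSMUSG00000046841) lies on chromosome 10 from 84526305 to 84534062 and Dkk3 (ENSMUSG00000030772) on chromosome 7 from 112116017 to 112159057. No exon of another gene overlaps theirs on either strand. Short stretches of Lrp6 transcripts resemble 28 other gene models, which together held 26 counts over the 4 libraries, and Lrp6 held 99.8% of the sum.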

How the data were processed

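The authors deposited whole-number counts per gene for 4 libraries, without normalization. The submitters' processing notes name fastp, HISAT2 and the mm10 build; which program counted reads, with which annotation and strand setting, is not given here. The authors' deposited tables, 1 per mouse, hold a log2 ratio, a p-value and FDR from a test that is not stated, FPKM and counts; the latter equal the count table (0 differing). FPKM was used without a test, to order levels, to give ratios between genes within a library and to place them beside the median of listed genes.

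Genes passing edgeR's filterByExpr (17462) were fitted with edgeR 4.0.16 quasi-likelihood (TMM scaling) in R 4.3.3, with terms for mouse and treatment; p-values are two-sided, adjusted by Benjamini-Hochberg over all genes, with a threshold of 0.05. Intervals (95%) come from the F statistic and its degrees of freedom. The labels name 2 mice and number the precursor cells, which gives the pairs; as a check, libraries with 1 number departed together from their treatment's mean (correlation 0.726). CPM uses TMM scaling, log2 CPM a prior count of 2. Alternatives used DESeq2 1.42.0, limma 3.58.1 and other scalings, filters and subsets. The model was tested on simulated data. Positions come from GENCODE M21, near-identical transcripts from BLAST 2.17.0 (95% identity or more, 100 aligned bases, covering 50% of whichever transcript is shorter), intervals of count ratios from SciPy 1.17.1.

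The members and the gene lists were chosen with earlier results of these data known. Besides the 7 members, the rule names per list the called genes, or the 2 with the smallest p, and the most abundant tested gene, and per member the 2 nearest genes in pattern. Dkk2, Dkkl1, Sfrp1, Apcdd1, Lrp3, the marker sums without Lyz2 or Spp1 and the genes at 0 lie outside that rule. So do the markers Csf1r, Tnfrsf11a, Ly6c2, Cd14, Bglap, Sp7, Cldn5, Vpreb1 and Igll1. All of these were chosen after their values were seen.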

Additional observations from a re-analysis of the deposited data

How the results depend on the processing

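With DKK1, none of the 7 genes passed the test under any alternative that gives one. The count over all genes was 9 and became 0 without the replicate block that pairs libraries by mouse, 5 with upper-quartile scaling, 0 without a filter on low counts, 14 with a stricter filter, 46 with DESeq2, 2 with limma-voom and 0 whenever 1 library was left out. Without the replicate block, Ckap4 had a log2 change of -0.0105 and Dkk1 of 0.0674. Dkk1 also turned with DESeq2 (1.98) and limma-voom (0.28), and Dkk3 with DESeq2 (-0.18). Leaving out 1 pair or 1 library gave log2 changes of -0.17 to -0.04 for Lrp5, -0.09 to -0.03 for Lrp6, -0.48 to 1.74 for Lrp4, -0.24 to 0.23 for Kremen1, -0.67 to 0.74 for Ckap4, -0.81 to 6.37 for Dkk1 and -1.63 to 1.12 for Dkk3. With 1 library left out, signs turned for Lrp4 and Ckap4 without PBS 1 (-0.161 and -0.499) or DKK1 2 (-0.477 and -0.665), for Kremen1 without DKK1 1 (-0.239) or PBS 2 (-0.174), for Dkk1 without PBS 1 (6.37) or DKK1 1 (0.135) and for Dkk3 without DKK1 1 (-1.63). With pair 1 left out they turned for Kremen1 (-0.0213), Ckap4 (-0.0475), Dkk1 (2.73) and Dkk3 (-1.17), and with pair 2 left out for none of the 7. Leaving out 1 library needs a fit without the block, which sets 2 preparations against 1 and assumes that the lone sample varies like the other treatment's; within a pair, Lrp4 was higher with DKK1 in both mice.

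Between preparations, the count over all genes was 5905 and became 3507 without a filter and 3194 to 4570 with 1 library left out (3194 without DKK1 2 and 3346 without PBS 2). The count among the 7 genes was 3, or 2 to 3 with 1 library left out. Lrp5 turned with upper-quartile scaling (-0.0187) and ranged from -0.0566 to 0.116, and Lrp6 from -0.0708 to 0.0153, with 1 library left out. The causes of these shifts were not tested. The stricter filter leaves out Dkk1 and Dkk3. The order of the receptors by FPKM was the same with exon lengths. Depth limits Dkk1 and Dkk3 most, with at most 36 counts in a library, and Lrp4 next, with 178 to 686; how much counting adds to the other spread was not separated. The number of mice limits all 7.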
